A study of Mus musculus with 20 samples.

Results

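The genes of the cytosolic ribosome's proteins were followed in mdx and control mice, in muscle of the eye and of the leg. A probe set, the group of oligonucleotides that reads 1 transcript on the array, was a member if its only gene symbol in the platform annotation was Rpl or Rps followed by a digit, or was Rplp0, Rplp1, Rplp2 or Rpsa. S6 kinases (Rps6k symbols) and pseudogene names with -ps were left out. This gave 47 of the array's 12654 probe sets, for 37 genes, 18 with large-subunit (Rpl) and 19 with small-subunit (Rps) symbols. The rule reads symbols only, not measured values. Of the 47, 36 probe sets of 29 genes reached a scaled signal of 200 on at least 5 arrays and were tested, 16 for the large and 20 for the small subunit. The other 11 were too dim. The symbols also took in Rpl7l1, Rps27l, Rps4l and Rpl39l, which are paralogues of ribosomal proteins; the RefSeq gene table lists Rps4l as a transcribed pseudogene. No member probe set carried Rpl3, Rpl3l or Rps27a as its only symbol. A further 33 probe sets name a ribosomal protein among several genes and are not members.

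Total RNA of extraocular muscle, which moves the eye, and of leg muscle came from mice aged 8 weeks. The 4 groups, of 5 one-colour Affymetrix arrays each, were control and mdx extraocular muscle and control and mdx leg muscle; mdx mice lack dystrophin through a mutation in Dmd, and the series title calls the controls wild type. The labels name gastrocnemius and soleus for the leg controls but only leg muscle for the leg mdx arrays, give no strain, and do not say whether replicates are separate animals, so each p-value speaks only of the spread among these samples, part of which may be technical. Control and mdx arrays also carry different descriptions in the labels, and anything that went with that difference cannot be told apart from genotype.

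The cytosolic ribosome is built from a small subunit, which reads the mRNA, and a large subunit, which joins amino acids. Each subunit is an RNA core covered by ribosomal proteins made in near-equal number, and most of their mRNAs begin with a pyrimidine tract, the 5′ terminal oligopyrimidine (TOP) motif, through which mTOR signalling controls their translation. In skeletal muscle, the number of ribosomes is known as a limit on growth and on rebuilding of fibres.

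Promoters are shown for the 3 protein-coding members whose probe sets differed most between leg mdx and leg control arrays. RefSeq windows (GRCm38.p6) around the annotated start were found for 30 of the 37 genes, 39 windows in all, each holding 250 bases before and 50 after the start. The 70 bases before and 20 after the start are printed 5′ to 3′ along the gene, and all 3 genes lie on the minus strand. Capitals mark CTTTCC or its reverse GGAAAG, a pyrimidine-rich element, and CTTCCG or its reverse CGGAAG, the core bound by ETS factors. Positions are chr10:128549149-128549238 for Rpl41, chr17:33824543-33824632 for Rps28 and chr7:45128726-45128815 for Rpl13a.
Rpl41: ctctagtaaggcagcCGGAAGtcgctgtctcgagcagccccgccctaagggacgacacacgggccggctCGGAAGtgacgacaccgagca
Rps28: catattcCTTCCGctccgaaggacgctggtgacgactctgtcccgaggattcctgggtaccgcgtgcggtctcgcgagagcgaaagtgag
Rpl13a: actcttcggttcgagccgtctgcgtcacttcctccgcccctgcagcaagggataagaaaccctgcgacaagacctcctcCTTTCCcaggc

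Over the full windows, CTTTCC or its reverse was in 53.8% of the 39 member windows and in 26.6% of all 32851 RefSeq windows of the same length. CTTCCG or its reverse was in 56.4% of member windows and 16.9% of all. Both strands were searched, neither motif contains the other, and a match is a description of letters only. Within the printed stretch, Rpl41 and Rps28 held the ETS core and Rpl13a the pyrimidine element.

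Signals below are scaled so that every array has the same trimmed mean of 500, and a difference is mdx minus control of log2 signal, with a 95% interval from limma. Of 17 listed muscle markers 14 were on the array and 12 passed the signal filter, which leaves out dim sets. Of those 12, 0 had a group mean under the floor of 50 in any group. The library labelled leg control 1 stood apart. It was the highest array of its group for 23 of the 36 tested members, and its 99th percentile signal was 12858 against 6602 to 9990 on the other arrays. Its mean correlation with the other arrays of its group, 0.892, was the lowest of the 20. Leg control 4 read 10865 for the summed signal of 5 gland and epithelial markers, against 1401 to 2890 on the other leg arrays, with 8892 for Bpifa2, a salivary gland transcript. The extraocular arrays also carried this signal. Their sums were 5295 to 6502 in control and 5969 to 7490 in mdx, with 3030 to 4634 for Bpifa2 over both groups. Results were also computed without leg control 1 and 4. EOM control 5 (EOM, extraocular muscle) was the highest of its group for 18 members, and leg mdx 3 the lowest of its group for 16. The members made up 1.76% to 2.92% of the summed signal of an array. In bulk tissue, fewer cells of a type and less RNA per cell cannot be told apart.

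In leg muscle most tested ribosomal protein probe sets were close to their control level in mdx mice. Their share was near that of all tested probe sets. Of the 36 tested probe sets, 2 were higher, for Rpl13a and Rps4l, and 2 were lower, for Rpl41 and Rps28 (limma, Benjamini-Hochberg adjusted p under 0.05 over all probe sets). Among all tested sets, 10.7% of 7204 were higher and 7.15% lower, so the members' shares were no larger than the background. The members' median difference was -0.10, against -0.06 for all tested probe sets. Of the 36 differences 25, or 69.4%, were negative, against 56.5% of all. The difference lay within 0.5 log2 units of 0 for 28 members, 77.8%, as for 73.7% of all. At an unadjusted p under 0.05 there were 10 members, 27.8%, against 29.5% of all tested probe sets. The arrays of the groups did not overlap for 4 members, Rpl13a, Rps4l and Rpl10a above and Rpl41 below, beside 13.6% of all probe sets. The large-subunit probe sets had a median of -0.23 with 1 higher and 1 lower, and the small-subunit ones a median of -0.09, also with 1 higher and 1 lower.

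**Figure D1:**
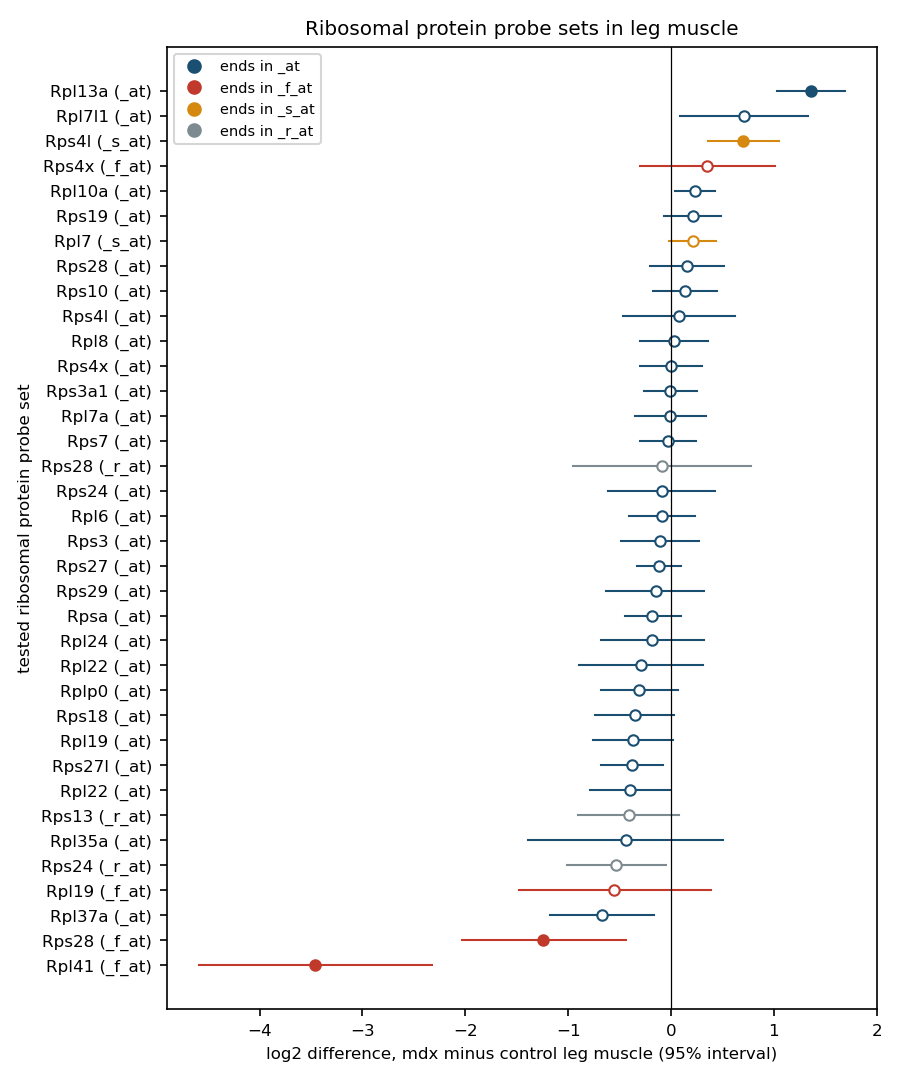
Log2 difference, mdx minus control, in leg muscle for each of the 36 tested ribosomal protein probe sets (points), with 95% intervals from limma (lines) and filled points for adjusted p under 0.05. Rpl41 at -3.46 and Rpl13a at 1.36 lie at the ends, and 28 of the points lie within 0.5 of 0.

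The members were next read by kind of probe set. Names ending in plain _at mark sets designed for 1 transcript, while _f_at and _s_at mark sets whose probes are shared within a family or by several transcripts, and _r_at sets for which some design rules were dropped. Among the 27 tested plain _at sets 1 was higher and 0 lower, with a median of -0.09 and 6 at an unadjusted p under 0.05. Of the 6 tested _f_at and _s_at sets, 1 was higher and 2 were lower, with a median of -0.17 and a range from -3.46 to 0.70. The 3 tested _r_at sets had a median of -0.41 and 0 calls, with 1 at an unadjusted p under 0.05. Of the 29 tested non-member sets that name several genes, 1 was higher and 0 lower, with a median of -0.15.

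Rpl41, a very short and basic protein of the large subunit, was read by 1 probe set, an _f_at set. Its scaled signals on leg control arrays 1 to 5 were 14498, 3605, 3940, 3997 and 11489. On leg mdx arrays 1 to 5 they were 1376, 646, 162, 336 and 1228. Every mdx array lay below every control array, although both groups varied widely, with means of 7506 ± 5123 (SD, n = 5) in control and 750 ± 536 in mdx. The difference was -3.46 (SE 0.55, interval -4.59 to -2.32), 11.0-fold lower, with a limma adjusted p of 8.05e-05. It was the lowest of all 7204 differences in this comparison.

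The extraocular arrays did not show this for Rpl41. Its signals were 1833, 5148, 5044, 1967 and 5487 on control arrays and 14059, 3616, 5192, 3091 and 4681 on mdx arrays. The groups overlapped, with EOM mdx 1 far above the other arrays, and the difference was 0.58 (interval -0.55 to 1.71, limma adjusted p = 0.999). The mdx difference in leg minus that in extraocular muscle was -4.03 (SE 0.77, interval -5.64 to -2.43, limma adjusted p = 0.00222).

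A control probe set at the 3′ end of beta-actin, which reads the end of a common transcript, was also low on the leg mdx arrays. It read 5420, 2313, 346, 6884 and 3420 there and 11084 to 14576 on leg control arrays. The log2 ratio of the 3′ to the 5′ beta-actin set was -3.61 to -0.22 in leg mdx and 0.06 to 0.94 in leg control. The same ratio for Gapdh was -2.50 ± 0.137 (SD, n = 5) in leg mdx and -2.48 ± 0.844 in leg control. In extraocular muscle the Gapdh ratio was -1.27 ± 0.617 in mdx and -2.35 ± 0.845 in control. The beta-actin ratio there was 0.168 ± 0.357 in mdx and 0.0840 ± 0.205 in control. EOM mdx 1, the highest extraocular array for Rpl41, also read highest for the 3′ Gapdh set, at 11782. The part of these 3′ patterns in the Rpl41 results of either muscle was not tested.

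Rps28, a small-subunit protein, had 3 tested probe sets that did not give 1 answer. On its _f_at set the leg control arrays read 24354, 9829, 9114, 10050 and 16256, and the leg mdx arrays 12191, 5743, 2371, 4174 and 7050. The groups overlapped, since leg mdx 1 lay above 3 of the controls, and the difference was -1.24 (SE 0.38, interval -2.03 to -0.44, limma adjusted p = 0.0269). Leaving out leg control 1, leg control 5, leg mdx 3 or leg mdx 4 ended that call, with an adjusted p of up to 0.0951. Both this set and that of Rpl41 read highest of the group on leg control 1 and on EOM mdx 1. Both also read lowest of the group on leg mdx 3. The part of the 3′ patterns above in this Rps28 result was not tested.

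The plain _at set of Rps28 read 11396, 6127, 7435, 6370 and 7358 in leg control and 6816, 8679, 7253, 9036 and 10959 in leg mdx. These groups overlapped throughout, and the difference was 0.16 (interval -0.20 to 0.52, limma adjusted p = 0.595). Its _r_at set, which was dim and had 1 array at the floor, gave -0.09 (interval -0.95 to 0.78, limma adjusted p = 0.916). The intervals of the _f_at and plain _at sets do not touch. In extraocular muscle the 3 sets gave 0.16, -0.10 and 0.02 in the same order, and 0 of them passed at an adjusted p of 0.999 or above.

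Rpl13a is a large-subunit protein that is also known, once released from the ribosome, to silence a group of inflammatory mRNAs. Its probe set was the only plain _at member that passed in leg muscle. The set was dim, with a mean signal of 443 over all arrays, and its probes were not checked. It may therefore read little or none of the Rpl13a mRNA. The leg control arrays read 282, 296, 294, 370 and 308, and the leg mdx arrays 668, 704, 897, 958 and 775. All 5 mdx arrays lay well above all 5 controls, with means of 800 ± 124 (SD, n = 5) and 310 ± 34.7, a 2.57-fold difference (log2 1.36, SE 0.16, interval 1.03 to 1.69, limma adjusted p = 1.48e-06).

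Extraocular muscle had Rpl13a signals of 327, 299, 267, 262 and 436 in control and 353, 356, 310, 350 and 347 in mdx. The mdx arrays sat within the control range, and the difference was 0.13 (interval -0.19 to 0.46, limma adjusted p = 0.999). The mdx difference was larger in leg than in extraocular muscle by 1.23 (SE 0.22, interval 0.77 to 1.69, limma adjusted p = 0.00131).

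**Figure D2:**
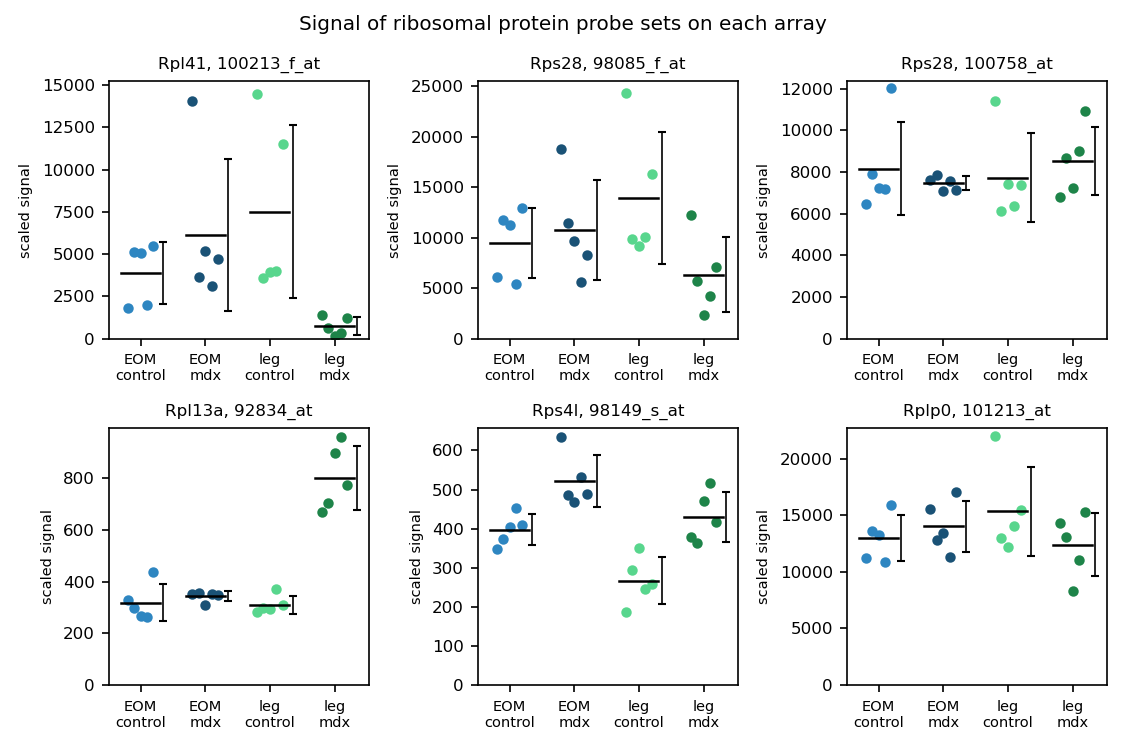
Scaled signal (linear axis) of 6 ribosomal protein probe sets on each of the 20 arrays by group, with the group mean (bar) and SD (n = 5). The leg mdx arrays lie below all leg controls for Rpl41 and above all of them for Rpl13a, while the _f_at set of Rps28 overlaps between the groups.

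Rps4l, a pseudogene in the family of the small-subunit protein Rps4, had an _s_at set and a plain _at set. On the _s_at set leg control arrays read 186, 294, 350, 246 and 258, and leg mdx arrays 379, 364, 470, 518 and 417. All mdx arrays lay above all controls, by 0.70 (SE 0.17, interval 0.36 to 1.05, limma adjusted p = 0.00460), a 1.63-fold difference. The call ended without leg control 1 and 4 together, at an adjusted p of 0.0528.

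On the same _s_at set the extraocular arrays read 349, 373, 405, 453 and 409 in control and 635, 486, 468, 533 and 489 in mdx. These groups did not overlap either, but the difference of 0.39 (interval 0.04 to 0.74) did not pass at a limma adjusted p of 0.955. The plain _at set of Rps4l, with a mean signal of 208, gave 0.08 in leg muscle (interval -0.47 to 0.62, limma adjusted p = 0.886) and -0.43 in extraocular muscle (adjusted p = 0.999). Rps4x itself, the X-linked member that most ribosomes carry, gave -0.00 on its plain _at set and 0.35 on its _f_at set in leg muscle (limma adjusted p = 0.994 and 0.505).

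The bright members had a median interval of 0.32 log2 units to either side, against 0.51 for the 10 dim plain _at sets. Of the 17 bright ones, plain _at sets with a mean signal of at least 1000, a limit chosen after the values were seen, 0 passed in leg muscle, with 2 at an unadjusted p under 0.05. Under quantile normalization 3 of them passed as higher, Rps28 at 0.42, Rps10 at 0.42 and Rpl10a at 0.41, and with no filter Rpl10a passed (limma adjusted p = 0.0350). On the main scaling the 17 bright sets had a median of -0.03, and 16 of 17 lay within 0.5 of 0. Of all 1941 tested probe sets this bright, 242 were higher, 306 were lower and 74.7% lay within 0.5. The exception was Rpl37a, a zinc-binding large-subunit protein, at -0.67 (interval -1.18 to -0.16, limma adjusted p = 0.0631). It passed as lower without leg mdx 1 (-0.82, adjusted p = 0.0232), leg mdx 2 (-0.78, adjusted p = 0.0408), EOM mdx 1 or EOM mdx 5.

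Rplp0, the stalk protein where elongation factors dock and a common reference transcript, gave a wide range of signals within each group. Its leg control arrays read 22023, 12995, 12228, 14017 and 15433, and its leg mdx arrays 14332, 13050, 8303, 11064 and 15274. The groups overlapped, with leg control 1 highest and leg mdx 3 lowest, and the difference was -0.31 (interval -0.68 to 0.07, limma adjusted p = 0.277). Quantile normalization moved it to -0.03. In extraocular muscle it was 0.11 (interval -0.27 to 0.49, limma adjusted p = 0.999).

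None of the other 4 brightest sets passed in leg muscle. Rps18, at the head of the small subunit, gave -0.35 in leg muscle (interval -0.74 to 0.03), and Rps3a1 gave -0.01 (interval -0.26 to 0.25), with limma adjusted p of 0.211 and 0.982. Rps4x is given above. The brightest of all, the _r_at set of Rps24, gave -0.53 (interval -1.01 to -0.05, limma adjusted p = 0.126) and passed without leg mdx 1 (adjusted p = 0.0469), while the dim plain _at set of the same gene gave -0.09 (adjusted p = 0.851). Rps3, which lines the mRNA entry channel, gave -0.11, and Rpsa, also known as a laminin receptor, gave -0.18 (limma adjusted p = 0.750 and 0.415). Rpl8 gave 0.03 and Rps7 gave -0.03, at adjusted p of 0.927 and 0.909.

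Rpl10a, a protein of the large subunit's L1 stalk, was the one further member whose leg groups were apart. It read 6088, 6262, 5976, 5572 and 5164 in leg control and 6477, 6855, 6611, 6873 and 7331 in leg mdx. All mdx arrays were higher by a small step, 0.23 (interval 0.04 to 0.43), that did not pass (limma adjusted p = 0.0997).

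**Figure D3:**
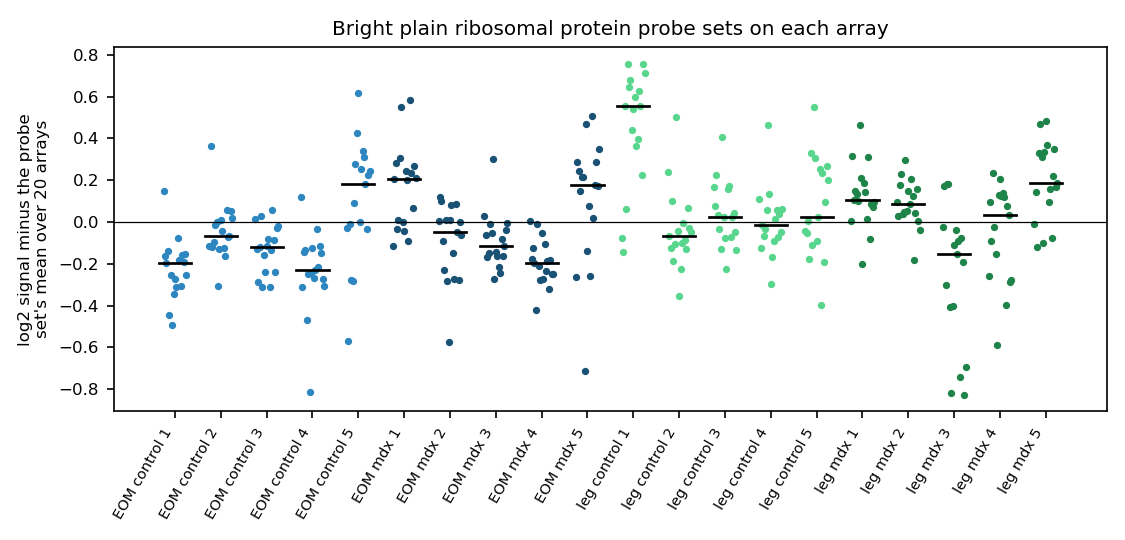
Log2 deviation of each of the 17 bright plain _at ribosomal protein probe sets (points) from its own mean over all 20 arrays, by array, with the median as a bar. On leg control 1 the median is 0.56 and 15 of the 17 sets lie above their mean, so these transcripts were read high together on that array.

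The dimmest tested sets bound little. Rpl35a, with a mean signal of 169, gave -0.44 in leg muscle with an interval from -1.39 to 0.51 and -0.81 in extraocular muscle with one from -1.76 to 0.14 (limma adjusted p = 0.578 and 0.999). Rpl7l1, which works in assembly of the large subunit, gave 0.71 in leg muscle (interval 0.09 to 1.33, limma adjusted p = 0.108), and passed without leg control 4 (0.91, adjusted p = 0.0397). The _f_at set of Rpl19 gave -0.55 (interval -1.48 to 0.39), and its plain _at set, which was bright, gave -0.37 (interval -0.76 to 0.02), at adjusted p of 0.460 and 0.201. The 11 untested sets were those of Rps14, Rps15, Rps20, Rps25, Rpl39, Rpl39l, both sets of Rpl38, and 1 set each of Rpl7, Rpl19 and Rpl32, with mean signals from 8.15 to 137. Nothing is said here of change in them.

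In extraocular muscle 0 of the 36 members passed in either direction, beside 0.0416% of all 7204 probe sets higher and 0.0416% lower (limma). At an unadjusted p under 0.05 there was 1 member, the _s_at set of Rps4l, or 2.78% against 5.12% of all tested sets, and 0 members passed under any of the alternative settings. The median difference was 0.05, against -0.02 for all tested sets, and 33 members, 91.7%, lay within 0.5 of 0, the same share as of all. The large-subunit median was 0.10 and the small-subunit median 0.01. All 17 bright plain _at sets lay within 0.5, with a median of 0.09.

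The difference between the muscles in the mdx effect passed for 1 member in each direction, Rpl13a and Rpl41 as given above, beside 4.93% of all probe sets higher and 1.29% lower. The members' median was -0.05, against -0.02 for all, and 7 members, 19.4%, had an unadjusted p under 0.05, against 18.3% of all. For the _f_at set of Rps28 the difference of effects was -1.39 (limma adjusted p = 0.153), so its lower signal in leg mdx muscle was not shown to differ from extraocular muscle.

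**Figure D4:**
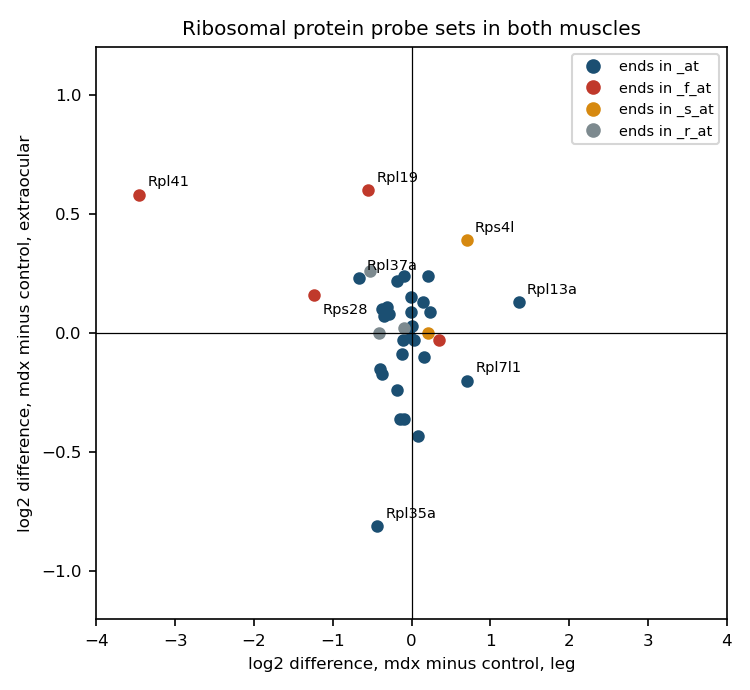
Log2 difference, mdx minus control, in leg muscle (horizontal) and extraocular muscle (vertical, on a narrower scale) for the 36 tested ribosomal protein probe sets, coloured by the ending of the probe set name. Rpl41 lies at -3.46 in leg and 0.58 in extraocular muscle, Rpl13a at 1.36 and 0.13 and the _f_at set of Rps28 at -1.24 and 0.16; 28 sets lie within 0.5 of 0 in leg muscle and 33 in extraocular muscle.

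Between the control muscles, extraocular muscle had 2 members higher and 2 lower than leg muscle, beside 10.3% and 7.41% of all probe sets. The members' median was -0.16, against 0.02 for all, and 25 of 36 differences, 69.4%, were negative, against 47.8% of all. That median ran from -0.19 to -0.09 on leaving out 1 array and from -0.21 to -0.06 under the other settings. Leg control 1, on which the bright members were read high together, is among the arrays compared. This comparison shares its arrays with those above. Leaving out arrays moved these calls: 1 member passed without leg control 1 and 4, and 2 without EOM control 1, 2, 4 or 5 or without leg control 3 or 5. Of 5 gland and epithelial markers, 1 was higher and 0 lower in extraocular control muscle. The part of gland tissue in the member differences was not tested.

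Rpl37a was lower in extraocular muscle. Its control arrays read 4484, 5103, 5657, 3588 and 7643 there and 10095, 8947, 8361, 8709 and 9235 in leg muscle. All 5 extraocular controls lay below all 5 leg controls, with a log2 difference of -0.82 (SE 0.24, limma adjusted p = 0.0227). The call ended without EOM control 1 or 4 (adjusted p up to 0.0714), and also with no filter and without leg control 1 and 4 together (up to 0.0771).

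Rps27l, a p53-induced paralogue of Rps27, was lower at 651 ± 94.5 against 871 ± 96.0 (SD, n = 5; log2 -0.43, limma adjusted p = 0.0437), with overlapping groups. Rpl7l1 was higher at 241 ± 27.1 against 135 ± 64.9 (log2 0.97, limma adjusted p = 0.0264), also with overlap. The Rps4l _s_at set was higher at 398 ± 39.4 against 267 ± 60.4 (log2 0.60, limma adjusted p = 0.0151). The Rps27l call ended without any 1 of 8 arrays (EOM control 2, 3, 4 and 5, leg control 1, 2, 3 and 5), at an adjusted p of up to 0.128, and also with only the groups compared and without leg control 1 and 4 together (up to 0.0900). The Rpl7l1 call ended without EOM control 1, 2 or 5 or leg control 3 or 5 (up to 0.0807) and with only the groups compared (0.0777). The Rps4l call held without any 1 array but ended without leg control 1 and 4 together and with only the groups compared (up to 0.121).

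Between the mdx muscles, 1 member was higher in extraocular than in leg muscle and 2 were lower, beside 9.24% and 8.83% of all probe sets. Rpl41 was 9.15-fold higher (log2 3.19, SE 0.55, limma adjusted p = 2.10e-04), and Rpl13a was 2.31-fold lower (log2 -1.21, SE 0.16, limma adjusted p = 7.79e-06), both with groups that did not overlap. Rpl10a was lower by a log2 difference of -0.29 (SE 0.10, limma adjusted p = 0.0407), with overlap, and this call ended without leg mdx 2, 3, 4 or 5 or without EOM mdx 1, 2, 3 or 4 (adjusted p up to 0.0941). The members' median was -0.03, against 0.00 for all. These differences rest on the same leg mdx arrays as the leg comparison. Of 5 gland and epithelial markers, 4 were higher and 0 lower in extraocular mdx muscle. The part of gland tissue in the member differences was not tested.

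The scaling moved the counts. Under quantile normalization, which gives every array the same distribution of signals, 6 members were higher and 3 lower in leg mdx muscle, in place of 2 and 2. The added calls were Rps28 (plain _at), Rpl7 (_s_at), Rpl10a and Rps10 as higher, and Rps27l as lower, which also passed under median centring (-0.43). Between the mdx muscles the same scaling gave 1 higher and 8 lower, in place of 1 and 2. Rpl41 and Rpl13a passed in the same direction in every alternative that was run for the leg comparison.

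Other genes of protein synthesis were counted from fixed lists, each gene by its brightest tested probe set. Among all 7204 tested probe sets, 10.7% were higher and 7.15% lower in leg mdx muscle, and 29.5% had an unadjusted p under 0.05 (limma). Their median was -0.06. Of the 1941 with a mean signal of at least 1000, 242 were higher and 306 lower, with a median of -0.14. Mitochondrial ribosomal proteins, which serve the separate ribosome inside mitochondria, had 15 of 57 tested genes lower and 0 higher in leg mdx muscle, with a median of -0.32. Mrps21, a small-subunit protein, was 3476 ± 481 against 4925 ± 635 in control (SD, n = 5; log2 -0.50, limma adjusted p = 0.00267). Mrpl2 was 703 ± 142 against 1141 ± 204 (log2 -0.71, limma adjusted p = 0.00422). Mrps28 and Mrps7 gave -0.66 and -0.72. Without leg control 1 and 4, 10 genes of that list were lower.

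Translation factors gave calls in both directions in leg muscle. Among 31 initiation factors and their regulators 2 were higher and 4 lower, with a median of -0.04. Eif1a, which helps the ribosome find the start codon, was 1.94-fold higher (log2 0.96, SE 0.22, limma adjusted p = 0.00291). Eif4ebp2, an inhibitor of cap-dependent initiation that mTOR switches off, was 4973 ± 294 against 6633 ± 233 (SD, n = 5). Its log2 difference was -0.42 (limma adjusted p = 0.00351). Eif2b5 and Eif2b4, subunits of the exchange factor for eIF2, gave -0.59 and -0.45. Without leg control 1 and 4, 1 was higher and 2 lower; 1 was higher without leg control 5 or leg mdx 1, and 2 were lower without leg mdx 3.

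Of 8 elongation and release factors 1 was higher, the exchange factor subunit Eef1b2, at 2690 ± 543 against 1804 ± 193 (SD, n = 5; log2 0.56, limma adjusted p = 0.0188), a call that ended without leg control 1 and 4, without leg mdx 4 and without leg mdx 5. Of 13 other genes whose mRNAs carry the TOP motif 3 were higher (Npm1 0.50, Eef1b2 0.56 and the poly(A)-binding protein Pabpc1 0.48) and 1 was lower (Vim -0.96, limma adjusted p = 0.0359). The Vim call ended without leg control 2, 4 or 5 or leg mdx 2, 4 or 5. Of 49 ribosome assembly genes 2 were higher, the nucleolar chaperone Npm1 and the processing factor Utp18 (0.92, limma adjusted p = 0.0321), and 1 was higher without leg control 2 or leg mdx 3, 4 or 5. Of 13 genes of mTOR and S6 kinase signalling 1 was higher, the kinase Akt1 (0.50, limma adjusted p = 0.00644), and 1 lower, Eif4ebp2, which is also in the initiation list. In extraocular muscle 0 genes of these lists passed (limma), with 2 mitochondrial ribosomal, 1 initiation and 1 mTOR gene at an unadjusted p under 0.05. Of all tested probe sets, 5.12% were at that p in extraocular muscle.

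Among the lists of cell markers, only those of macrophages and fibroblasts had several calls in leg mdx muscle. Of 20 listed macrophage markers 16 were tested, and all 16 were higher in leg mdx muscle. Their summed signal was 45800 to 58363 there, against 5279 to 7612 in leg control arrays. It was 8451 to 11703 in extraocular control and 9157 to 17163 in extraocular mdx arrays. Cd53 had a group mean under 50 in both control groups, 17.9 in extraocular and 40.9 in leg muscle, and no other tested marker of the list did. A set could pass the filter through the 5 leg mdx arrays alone. For markers dim in the other groups, such as Cd53 and Adgre1, a higher call there may have been partly built in. Of 8 fibroblast markers 7 were higher in leg mdx muscle. Of 16 macrophage markers 1 was higher in extraocular mdx muscle, the protease Ctss (log2 1.04, limma adjusted p = 0.0259). The macrophage list had a median of 0.49 there, with 6 markers at an unadjusted p under 0.05, against 5.12% of all tested sets. Of 12 muscle markers 1 was lower in leg mdx muscle, Cacna1s (log2 -0.38, limma adjusted p = 0.0259), with a median of -0.34 over the list and summed signals of 64178 to 118764 against 85282 to 169998. The 3 red cell markers had a median of -0.54 and summed to 5444 to 14503 against 11435 to 18559, with 0 calls but all 3 at an unadjusted p under 0.05. The 5 gland and epithelial markers had a median of -0.54 and 0 calls, with 0 at an unadjusted p under 0.05. In extraocular mdx muscle their median was -0.02 with 0 calls, and 2 were at that p. In leg mdx muscle the 5 lymphocyte markers (median -0.34) and 8 endothelial markers (median -0.18) had 0 calls, with 0 and 3 at that p. The part of these cells in the Rpl13a, Rpl41, Rps28 and Rps4l differences was not tested.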

How the data were processed

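The authors deposited a linear intensity for each probe set and array. The sources used here do not name the summarising software; the deposited intensities run from 0.4 to 95476.8 with a 2% trimmed mean of 1500 on every array, so they had already been scaled. Per the labels, mdx arrays followed the standard protocol of the array's maker.

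Each array was rescaled to a 2% trimmed mean of 500 over 12588 non-control probe sets, values under 50 were set to 50, and log2 was taken. The floor understates folds of dim genes. The 7204 probe sets at 200 or more on at least 5 arrays were fitted with lmFit and eBayes (intensity trend) in limma 3.58.1, R 4.3.3. The model held 4 groups over all 20 arrays, left 16 residual degrees of freedom, and was adjusted by Benjamini-Hochberg at 5% within each of 5 contrasts. Printed signals are scaled values before the floor. The precision is limited by 5 arrays per group. Promoter letters were read with Python 3.11.15. The fit was tested on simulated data.

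Members and gene lists were chosen with earlier results of these data known, so list counts are descriptions and no list was tested. Named one by one were members that passed in a contrast (up to 8 each way), all sets of Rpl41 and Rplp0, genes whose sets disagreed, the 5 brightest and 5 dimmest members and up to 4 passing genes per list; Rpl37a, Rpl10a and the other members given in leg muscle were named after their values were seen. All 47 members were found in the RefSeq gene table under the same symbol. The array design is old and its probes were not checked against current transcripts, so a set may not read its gene. Alternatives were the deposited scaling, quantile normalization, median centring, other floors, filters and a pseudocount, array weights, no trend, a replicate block, only the groups compared, the brightest probe set per gene, and leaving out arrays. List counts and distant arrays under other settings were added after seeing the data.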

Additional observations from a re-analysis of the deposited data

Results flagged for a closer look

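Of 144 groups of 5 arrays checked over the 36 tested members, 20 held an array far from the rest by Dixon's test, 13.9%. Under quantile normalization there were 8. For independent groups of normally spread values the test marks about 1 in 20. The groups here share their arrays and the signals were not logged, so that rate is only a rough guide.

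Leg control 1 was the distant array 6 times, with signals of 11396 for Rps28 (plain _at), 17676 for Rps4x (plain _at), 1104 for 1 set of Rpl22, 9717 for Rpl6, 12221 for Rpl7 (_s_at) and 13254 for Rps10, each above the other leg controls. EOM control 5 was distant 5 times, above its group at 12033 for Rps28, 13651 for Rps4x, 10258 for Rps3 and 12120 for Rpl8, and below it at 4821 for Rpl10a. Under quantile normalization each of these arrays was distant 1 time. EOM mdx 1 was high at 14059 for Rpl41 and 1137 for the _f_at set of Rps4x. Leg mdx 5 was high at 890 for the other set of Rpl22 and 14778 for Rpl7, and leg mdx 1 at 356 for the _r_at set of Rps28. EOM mdx 5 was high at 13623 for Rpl8, EOM mdx 3 low at 310 for Rpl13a, and EOM control 2 and EOM mdx 4 were high at 296 and 335 for the plain _at set of Rps4l.

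The mdx difference in leg muscle departed from that in extraocular muscle by -4.03 for Rpl41 and by 1.23 for Rpl13a (limma test of the difference, adjusted p = 0.00222 and 0.00131). In leg muscle the signal was lower for Rpl41 and higher for Rpl13a on 5 of 5 mdx arrays than on every control array.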

How the results depend on the processing

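The members called in leg muscle, 4, were 3 to 6 over the fits that left out 1 array and 9 under quantile normalization. Between the control muscles the 4 calls became 2 to 4 when 1 array was left out, 2 with a filter at 500, 1 with only the groups compared and 1 without leg control 1 and 4. Between the mdx muscles the 3 calls were 2 to 4 and 9 under quantile normalization. The causes were not tested. In extraocular muscle 0 passed in every fit, and the difference between muscles kept 2 calls without any 1 array and 2 to 3 otherwise. The members' median stayed between -0.14 and -0.06 in leg muscle and between -0.02 and 0.11 in extraocular muscle. The Rps28 (_f_at) leg call also ended with no filter, with only the groups compared and without leg control 1 and 4, with an adjusted p of up to 0.114. The Rpl10a call between mdx muscles also ended with median centring, no trend, the replicate block and only the groups compared (up to 0.0926).

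With the replicate block, 4 members were called in leg muscle (median -0.10), 0 in extraocular muscle (0.05), 2 for the difference (-0.05), 4 between the control muscles (-0.16) and 2 between the mdx muscles (-0.03). Arrays of the same number correlated at 0.01 to 0.18 in leg muscle, with 3 of 5 pairs over 0.1. In extraocular muscle they correlated at 0.02 to 0.23, with 1 of 5 over 0.1, and between muscles at -0.08 to 0.08. The array correlated best with its own number in 3, 3, 1 and 1 of 5 pairs. The main fit did not use the number as a pairing. Whether arrays of the same number shared a source or batch was not tested.

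Limits are the 5 arrays per group, the unknown summarising method, the 11 members too dim to test and the sharing of probes within families, which leaves each _f_at and _s_at value open to related transcripts.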
